A study of Mus musculus with 23 samples.

Results

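The expression of 33 genes of Sertoli cells, the somatic nurse cells of the seminiferous tubule, was followed across juvenile testes of inbred mice and their F1 crosses. The genes were chosen by name from a list of Sertoli cell transcription factors, markers of the immature cell, hormone response genes, junction genes, signals and secreted proteins. The rule that finds them on the array uses their symbols alone, but the choice was made with earlier results of these data known. Each of the 33 genes had 1 probe set on the array, out of 19661 genes with a symbol of their own, and all 33 were among the 14745 genes tested.

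The RNA came from testes of mice aged 14.5 days, with 4 testes pooled per array, on 23 Affymetrix Mouse Gene 1.0 ST arrays of 7 genotypes. The inbred strains were PWD (3 arrays), derived from the subspecies Mus musculus musculus, and B6 (3 arrays), a laboratory strain mainly of Mus musculus domesticus origin. They were crossed both ways, giving the F1 hybrids PWDxB6 on 3 arrays and B6xPWD on 3 arrays. F1 animals from within a subspecies were BALB/CxB6 on 3 arrays, B6xBALB/C on 6 and PWDxPWK on 2. By convention the mother is named first, so that males of PWDxB6 carry the PWD X chromosome and males of B6xPWD the B6 X chromosome. No mouse carried a transgene or received a treatment per the labels. Whether the pools of a genotype were from separate litters is not stated, and p-values therefore measure the spread between these pools.

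Sertoli cells anchor and feed the germ cells, build the blood-testis barrier out of tight and gap junctions, and stop dividing as they mature before puberty. Immature Sertoli cells make anti-Müllerian hormone, while follicle-stimulating hormone acts on them through its receptor and is held back in turn by the inhibin they release. The male hybrids of PWD mothers and B6 fathers are a standard model of hybrid sterility with meiotic arrest, and the reciprocal hybrids are known to be less severely affected.

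According to the labels the tunica was removed and spermatogenic cells were prepared, yet the defining Sertoli transcripts were present on every array. On the log2 scale of the deposited values, Wt1 lay between 9.95 and 10.77, Sox9 between 8.87 and 9.62 and Clu between 12.50 and 12.99. The filter on dim signal stood at a log2 level of 5.12, and the members nearest to it were Krt18, between 5.13 and 5.93, and Ptgds, between 5.48 and 6.25. In a preparation of mixed cells, fewer Sertoli cells and less RNA per Sertoli cell cannot be told apart. A difference in RNA and a difference in probe binding between strain alleles cannot be told apart either.

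Arrays of 1 genotype correlated over all genes at 0.979 or above, except for B6xBALB/C, where the lowest correlation was 0.954. In that cross the 18 meiotic spermatocyte markers on the array, summarised as their mean relative to all arrays, ran from -0.69 in replicate 6 to 0.82 in replicate 2. For the comparisons that rest on these arrays, the number of members called is given with and without replicate 6. Differences, medians and means are given with all replicates only.

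The sequences just before the start sites of 3 members described below are shown for orientation, and no result was drawn from them. Cst9 and Cst12 are nearby cystatin genes whose mean levels were highest in the same hybrid, B6xPWD, though not past the test there. Vim, grouped here with the immature markers, was lower in B6xPWD. Each is the 100 bases before the start that RefSeq gives in the mouse build GRCm38.p6, on the plus strand of chromosome 2, at chr2:148835047-148835146 for Cst9, chr2:148789265-148789364 for Cst12 and chr2:13574211-13574310 for Vim. Capitals mark a GATA word (TGATAA) in Cst9 and a TATA word (TATAAA) in Vim.
Cst9: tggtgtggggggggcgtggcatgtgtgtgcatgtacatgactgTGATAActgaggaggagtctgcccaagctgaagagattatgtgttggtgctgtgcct
Cst12: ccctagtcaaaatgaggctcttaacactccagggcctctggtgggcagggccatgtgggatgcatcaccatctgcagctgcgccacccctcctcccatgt
Vim: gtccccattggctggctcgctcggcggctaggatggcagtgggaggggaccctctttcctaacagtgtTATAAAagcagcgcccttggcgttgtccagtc

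RefSeq promoters were given for 23 of the 33 genes, and the 250 bases before each start were searched on both strands for short words of factors known from these cells. The GATA words AGATAA and TGATAA were found in 6 of the 23 genes (Cst9, Tjp1, Gja1, Gdnf, Amhr2 and Tsx) and in 16.6% of all 32851 mouse promoters of this length. The SOX words ACAAAG and ACAATG occurred in 5 of the 23 genes (Cst9, Defb36, Ctsl, Krt18 and Nr0b1) and in 25.2% of all promoters. The steroidogenic factor word AAGGTCA was in Amhr2 alone among the 23, against 4.08% of all promoters. The cAMP response word TGACGTCA was in 0 of the 23 and in 1.55% of all promoters, and TATAAA was in 4 of the 23 (Vim, Kitl, Gdnf and Nr0b1) and in 12.4% of all. The words did not overlap one another in these genes. A member counted when any of its listed promoters matched, while the share over all is per promoter, so these units differ. A match is only a match of letters.

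The pooled within-genotype SD of the Sertoli genes ran from 0.10 for Clu to 0.29 for Kitl with a median of 0.19, beside a median of 0.16 over all genes tested. The range of the genotype means on the log2 scale was widest for Cst9 (1.38), Tsx (1.19), Espn (0.76) and Kitl (0.72). In the F test of limma over the 7 means, with Benjamini-Hochberg adjustment over all genes tested, 9 of the 33 members were called at an adjusted p under 0.05, against 33.8% of all genes. They were Cst9 (adjusted p = 8.58e-05), Tsx (0.000104), Trf (0.00633), Espn (0.00915), Wt1 (0.0338), Gja1 (0.0362), Fshr (0.0441), Gata1 (0.0484) and Mro (0.0497). The number called was 5 to 15 when 1 array was left out (15 without B6xBALB/C replicate 6) and 25 with array weights. The shares of all genes called under these settings are not given here.

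**Figure D1:**
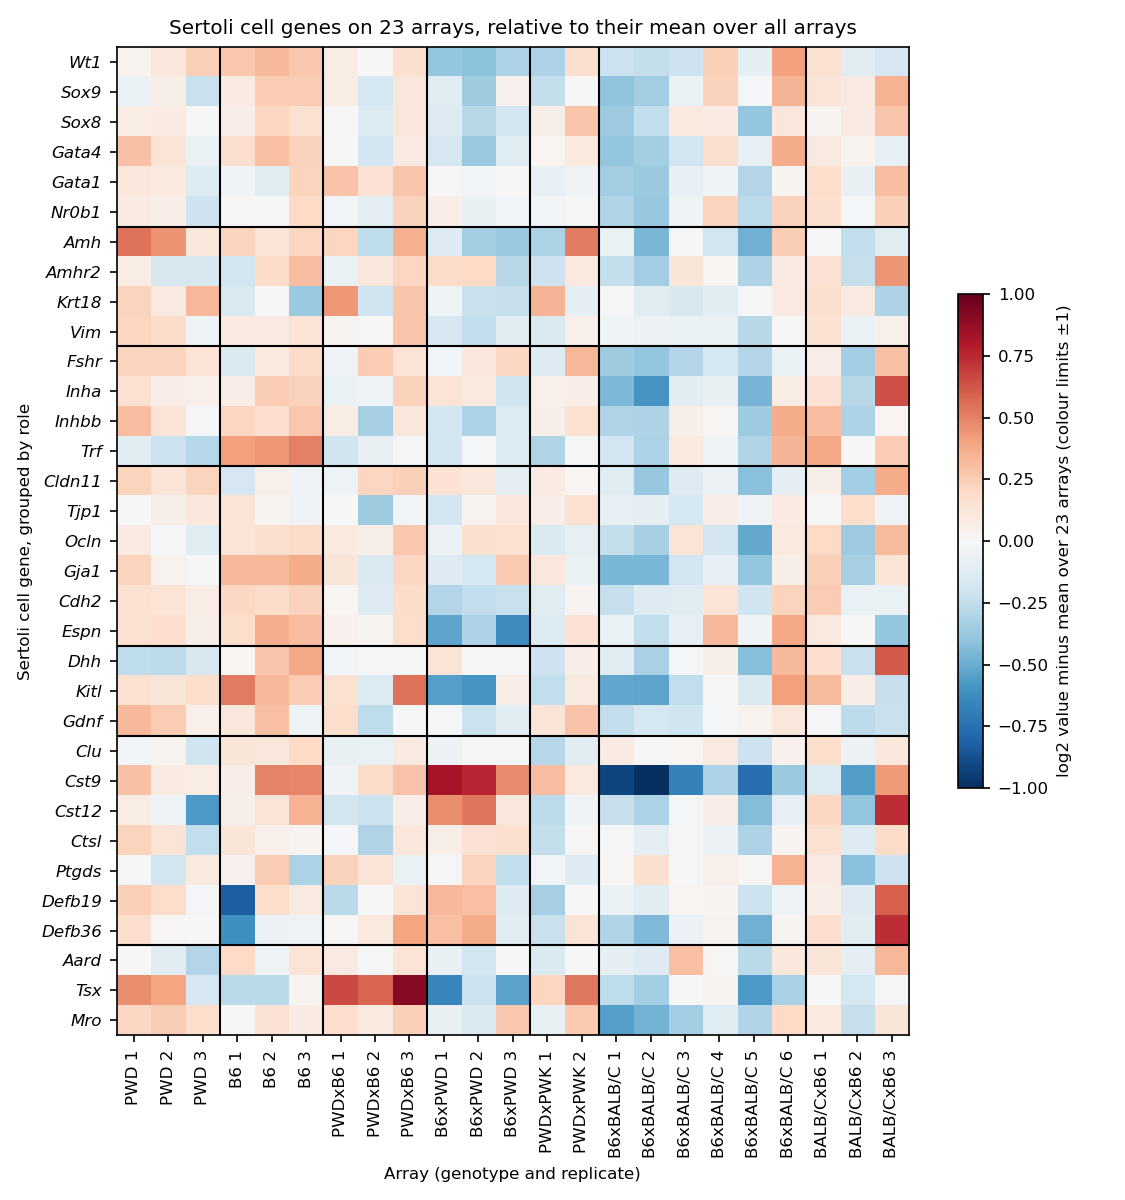
Heat map of the 33 Sertoli genes (rows, grouped by role) on the 23 arrays (columns, grouped by genotype), with colour giving the log2 level of a gene minus its mean over all arrays, limited to 1 on either side. The widest ranges are those of Cst9, low in B6xBALB/C and high in B6xPWD, and of Tsx, high in PWDxB6.

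The genotype with the lowest mean was B6xPWD for 11 members and B6xBALB/C for 10, and the genotype with the highest mean was B6 for 13 members and PWD for 7. Of the 6 transcription factors, Wt1, Sox9, Sox8 and Gata4 had their lowest means in B6xPWD. The secreted cystatins Cst9 and Cst12 and the protease gene Ctsl had their highest means in B6xPWD. These ranks are a description, since neighbouring means often lay within 1 SD of each other.

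The comparison with the most calls among the Sertoli genes was B6xPWD against the mean of both parents, although the median shift was larger in the control F1s against B6 (-0.17). Of the 33 members, 8 were lower than the mid-parent level and 0 were higher at an adjusted p under 0.05 (limma, all genes adjusted together), while 14.5% of all genes were called in either direction, 6.69% being lower and 7.79% higher. The count fell to 2 without B6xPWD replicate 2, and to 4 or 5 without any 1 of 5 other arrays named further on. The shares of all genes called without these arrays are not given here. The 8 were Wt1, Gata4, Amh, Vim, Cdh2, Espn, Kitl and Tsx. The median difference of the 33 was -0.12, against -0.03 over all genes, and 9 members had a positive difference, beside 6624 of all 14745 genes. On 9 members all B6xPWD arrays lay below all PWD and B6 arrays, a pattern found in 6.81% of all genes. Those 9 were Wt1, Sox8, Gata4, Amh, Vim, Inhbb, Cdh2, Espn and Kitl. Of these, Wt1 alone had all B6xPWD arrays below all arrays of B6xBALB/C and BALB/CxB6 as well. The rest overlapped with arrays of these control crosses, so low values were not particular to B6xPWD. Centring the arrays on the median autosomal gene changed the split of all calls from 1148 higher and 987 lower to 1371 and 617, and then 12 members had a positive difference.

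Among the identity transcription factors, 2 of 6 were lower in B6xPWD. Wt1, a zinc finger factor that maintains Sertoli cell identity, stood at 9.97, 9.95 and 10.05 in the B6xPWD replicates, at 10.39, 10.47 and 10.60 in PWD and at 10.63, 10.68 and 10.63 in B6. The B6xPWD arrays lay below every parental array, and the difference was -0.58 (SE 0.128, adjusted p = 0.0074), a 1.49-fold lower level. Wt1 in PWDxB6, at 10.43, 10.36 and 10.52, overlapped PWD. Gata4, a zinc finger factor of gonadal somatic cells, stood at 9.08, 8.88 and 9.13 in B6xPWD, at 9.54, 9.38 and 9.18 in PWD and at 9.42, 9.55 and 9.48 in B6, a difference of -0.39 (SE 0.129, adjusted p = 0.0439). The highest Gata4 array of B6xPWD lay just below the lowest PWD array, and the call was lost in 10 of 19 other settings. Sox8 (-0.30, adjusted p = 0.0721) and Sox9 (-0.21, adjusted p = 0.303), related factors of male sex determination, did not pass. Gata1, a factor that rises in Sertoli cells after birth, and the nuclear receptor gene Nr0b1 both differed by -0.03.

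Of the 4 genes grouped here as immature markers, Amh and Vim were lower in B6xPWD. The grouping was made by name, and the maturity of the Sertoli cells was not tested. Amh, which encodes the hormone that makes the Müllerian ducts regress and is shut down as Sertoli cells mature, stood at 7.93, 7.71 and 7.69 in B6xPWD. Its level was 8.60, 8.51 and 8.17 in PWD and 8.28, 8.19 and 8.27 in B6. The hybrid arrays lay below all parental arrays by -0.56 on average (SE 0.167, adjusted p = 0.0306). PWDxB6 reached from 7.80 to 8.41 and so overlapped both parents and the other hybrid. Mean Amh was 7.90 ± 0.28 (SD, n = 6) in B6xBALB/C and 7.93 ± 0.12 (SD, n = 3) in BALB/CxB6, beside 7.78 ± 0.13 (SD, n = 3) in B6xPWD. Vim, the intermediate filament vimentin, stood at 11.31, 11.23 and 11.36 in B6xPWD, at 11.69, 11.66 and 11.44 in PWD and at 11.57, 11.56 and 11.61 in B6, a difference of -0.29 (SE 0.0871, adjusted p = 0.0304). Amhr2, the receptor for the hormone encoded by Amh, differed by 0.03, and the keratin gene Krt18 by -0.18. Neither passed the test.

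None of the 4 hormone response genes passed the test in B6xPWD against the mid-parent level. Inhbb, a subunit of inhibin B, was nearest at -0.40 (SE 0.145, adjusted p = 0.0668), with the hybrid at 8.42, 8.29 and 8.47 and the parental arrays between 8.60 and 8.92. Inha, the alpha subunit of inhibin, differed by -0.12 (adjusted p = 0.598) and the transferrin gene Trf by -0.24 (adjusted p = 0.176). Fshr, the receptor for follicle-stimulating hormone, differed by -0.03 (SE 0.123), with means of 8.42 ± 0.12 (SD, n = 3) in B6xPWD, 8.52 ± 0.05 (SD, n = 3) in PWD and 8.37 ± 0.17 (SD, n = 3) in B6.

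Of the 6 junction and cytoskeleton genes, Espn and Cdh2 were lower. Espn, an actin-bundling protein of the ectoplasmic specialization where Sertoli cells hold germ cells, had the largest departure of the members: 8.12, 8.34 and 8.02 in B6xPWD against 8.80, 8.81 and 8.70 in PWD and 8.82, 9.01 and 8.95 in B6. All B6xPWD arrays lay below all parental arrays, by -0.68 (SE 0.127, adjusted p = 0.00275), a 1.61-fold lower level. Of 19 other settings, the difference passed in all that have a test. A mid-parent taken on the linear scale has no test, and there the difference kept its direction. Cdh2, the N-cadherin of Sertoli and germ cell contacts, stood at 9.14, 9.18 and 9.21 in B6xPWD, at 9.58, 9.57 and 9.50 in PWD and at 9.64, 9.61 and 9.66 in B6, a difference of -0.42 (SE 0.102, adjusted p = 0.0119). The tight junction genes Cldn11 (-0.02), Tjp1 (-0.06) and Ocln (0.01) and the gap junction gene Gja1 (-0.23, adjusted p = 0.244) did not pass.

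Of the signals to other cells, Kitl, the ligand of the Kit receptor on differentiating spermatogonia, was lower in B6xPWD at 8.40, 8.36 and 9.01, against 9.10, 9.07 and 9.12 in PWD and 9.47, 9.27 and 9.20 in B6. Replicate 3 lay far above the others of its group and only just below the parental arrays, and the difference was -0.62 (SE 0.183, adjusted p = 0.0298). Gdnf, the growth factor that maintains spermatogonial stem cells, differed by -0.28 (adjusted p = 0.0803), and Dhh, the hedgehog ligand that acts on Leydig and peritubular cells, by 0.05.

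The 7 secreted and lysosomal genes leaned the other way without passing the test. Their median difference was 0.19, and 6 of the 7 were positive, led by Cst9 (0.44, SE 0.178, adjusted p = 0.0961), Cst12 (0.37, adjusted p = 0.153), Defb36 (0.28, adjusted p = 0.256) and Defb19 (0.19, adjusted p = 0.471). The first pair encode cystatins, a family of protease inhibitors, and the other pair encode beta-defensins. Cst9 stood at 12.20, 12.14 and 11.85 in B6xPWD, between 11.45 and 11.67 in PWD and between 11.44 and 11.87 in B6, so that 1 hybrid array lay within the range of B6. The lysosomal protease gene Ctsl (0.07), the prostaglandin synthase gene Ptgds (0.01) and the abundant secreted chaperone Clu (-0.06) were close to the mid-parent level. Of the last 3 members Tsx was lower, as described further on, and Mro (-0.13) and Aard (-0.07), a transcript of the fetal and postnatal testis, did not pass.

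**Figure D2:**
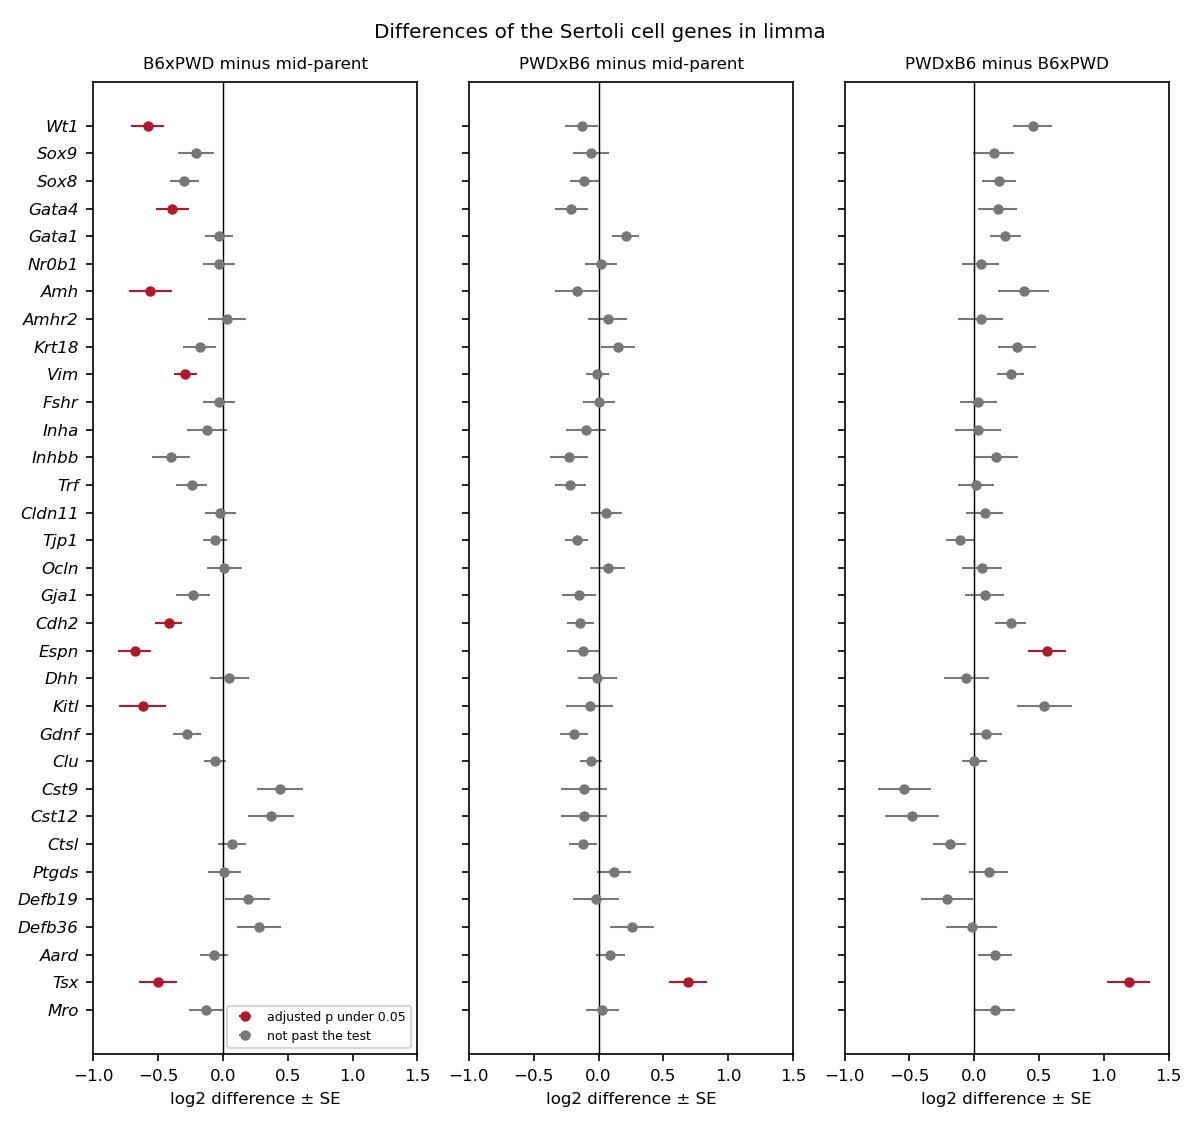
Log2 difference of each of the 33 genes (rows, ordered by role) in 3 panels, B6xPWD minus the mean of PWD and B6, PWDxB6 minus the same mean, and PWDxB6 minus B6xPWD, with bars of 1 SE from the limma fit and red points where the adjusted p was under 0.05. The 8 red points of B6xPWD all lie below 0, the 1 red point of PWDxB6 against mid-parent is Tsx at 0.69, and the 2 red points between the hybrids are Espn and Tsx.

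**Figure D3:**
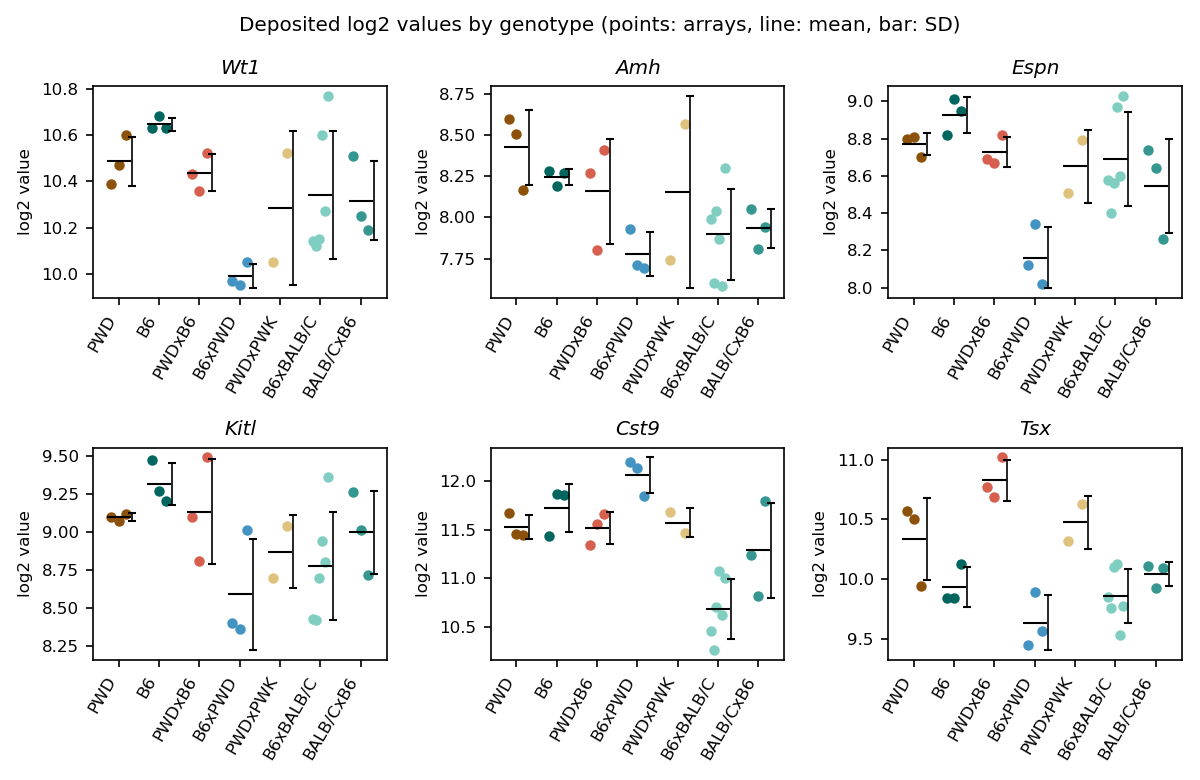
Deposited log2 value on every array (points), genotype mean (line) and SD (bar) of 6 Sertoli genes across the 7 genotypes, with axes that do not start at 0. Wt1, Amh, Espn, Kitl and Tsx were lowest on average in B6xPWD, Cst9 was highest there, and Tsx was highest in PWDxB6.

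Markers of other cells moved in B6xPWD as well. Relative to all arrays, the mean of the 18 meiotic spermatocyte markers was 0.23 ± 0.18 (SD, n = 3) in B6xPWD, -0.39 ± 0.11 (SD, n = 3) in PWD and 0.06 ± 0.19 (SD, n = 3) in B6. The low mean of PWD was not shared by all of these markers. For PWD minus B6 the median of the 17 tested was 0.06, and 9 were positive. Against the mid-parent level 1 of the 17 tested was higher (Sycp3, 0.87), 0 were lower and 16 were positive. Of the spermatogonial markers, 3 of 14 were higher (Stra8 0.53, Sohlh2 0.58 and Dazl 0.44). In contrast 4 of 10 peritubular markers, 4 of 8 endothelial markers and 2 of 6 Leydig cell markers were lower, with medians of -0.33, -0.39 and -0.43, while 0 of 5 macrophage markers were called. Over all genes 7.79% were higher and 6.69% lower. Without 1 of the B6xPWD or parental arrays the counts ran from 0 to 1 for Leydig cells, 0 to 3 for peritubular cells, 0 to 5 for endothelial cells and 0 to 3 for spermatogonia. The shares of all genes are not given for these settings. The part of these cells in the differences of the Sertoli genes was not tested.

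The other F1 hybrid, PWDxB6, was close to the mid-parent level. Tsx alone was called, as higher (0.671% of all genes were called and 0.509% were higher). The median of the 33 differences was -0.06, against 0.01 over all genes, and 11 were positive, beside 7810 of all 14745 genes. Wt1 differed by -0.13 (SE 0.128), Amh by -0.17 (SE 0.167), Espn by -0.12 (SE 0.127) and Kitl by -0.07 (SE 0.183), and none of these passed the test. Both hybrids were compared with the same 6 parental arrays, so their mid-parent differences are not independent.

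The direct comparison of the reciprocal hybrids called 2 members, Espn and Tsx, both higher in PWDxB6, where 2.83% of all genes were called and 1.33% were higher. Of the 33 differences 26 were positive, beside 8244 of all 14745 genes, with a median of 0.09 against 0.03 over all genes. With centring on the autosomal median 22 were positive, and the split of all calls went from 196 higher and 222 lower to 108 and 327. Espn, at 8.69, 8.67 and 8.82 in PWDxB6, lay above all B6xPWD arrays by 0.56 (SE 0.147, adjusted p = 0.041), but this call was lost in 8 of 15 other settings, up to an adjusted p of 0.154. The difference was 0.45 for Wt1 (adjusted p = 0.0941), 0.54 for Kitl (0.15), 0.38 for Amh (0.255) and 0.28 for both Vim (0.117) and Cdh2 (0.178). Cst9 (-0.54, adjusted p = 0.137) and Cst12 (-0.48, adjusted p = 0.184) had lower levels in PWDxB6, without overlap of the arrays. Among the members 6 had all PWDxB6 arrays above all B6xPWD arrays and 2 had them below, where 13.1% and 10.9% of all genes did. The mean of the meiotic markers was -0.38 ± 0.16 (SD, n = 3) in PWDxB6, below that of B6xPWD given above.

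Tsx, an X-linked transcript of Sertoli cells, differed most between the hybrids. It stood at 10.77, 10.69 and 11.02 in PWDxB6 and at 9.45, 9.89 and 9.57 in B6xPWD, with no overlap and a difference of 1.19 (SE 0.166, adjusted p = 0.000481), or 2.28-fold. The inbred strains were nearer to each other, at 10.57, 10.50 and 9.94 in PWD and 9.84, 9.84 and 10.13 in B6, a difference of 0.40 (adjusted p = 0.0991). Against the mid-parent level Tsx was higher in PWDxB6 by 0.69 (SE 0.144, adjusted p = 0.02) and lower in B6xPWD by -0.50 (SE 0.144, adjusted p = 0.026). Each of these calls was lost in 5 of 20 other settings, up to an adjusted p of 0.147 and 0.225. A hybrid male has only its mother's X, however, and against the inbred strain with the same X the differences were 0.49 (adjusted p = 0.146) and -0.30 (adjusted p = 0.225), neither of which passed. The control crosses had 10.11, 9.93 and 10.09 in BALB/CxB6 and a range from 9.53 to 10.13 in B6xBALB/C, and the 2 PWDxPWK arrays had 10.32 and 10.63.

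The reciprocal difference of Tsx was itself tested against that of the control crosses, with an interaction of 1.37 (SE 0.22, adjusted p = 0.00382). It is PWDxB6 minus B6xPWD (1.19) less B6xBALB/C minus BALB/CxB6 (-0.18). The B6 mother is thus on the subtracted side in the hybrids and on the other side in the controls. Mean Tsx was higher with the non-B6 mother in both, and no contrast with B6 mothers on like sides was tested. Tsx was the only member called, where 1.3% of all genes were called and 0.224% were higher. Of the 33 interaction terms 28 were positive, beside 8903 of all 14745 genes, with a median of 0.30 against 0.06 over all genes. Their signs depend on the order of mothers just given. The median of the 33 was 0.09 for PWDxB6 minus B6xPWD and -0.22 for B6xBALB/C minus BALB/CxB6. Without B6xBALB/C replicate 6 the number of members called was 3, with the share of all genes not given for that setting. The other X-linked members, Gata1 (interaction 0.57, adjusted p = 0.0704) and Nr0b1 (0.26, adjusted p = 0.502), did not pass.

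With the parent carrying the same X as the reference, 6 members were lower in B6xPWD than in B6 (Wt1, Gata4, Trf, Cdh2, Espn and Kitl), where 17% of all genes were called and 7.27% were lower. Amh (-0.47, adjusted p = 0.0976) and Vim (-0.28, adjusted p = 0.0566) no longer passed. In PWDxB6 against PWD, 0 of 33 were called by limma, where 2.31% of all genes were called. At an unadjusted p under 0.05 there was 1 member, beside 1954 of all 14745 genes. This reference was chosen after the data were seen.

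The parental strains differed in 1 member, while 18.4% of all genes were called and 8.04% were lower in PWD. Trf, which encodes the iron carrier transferrin that Sertoli cells pass to germ cells, stood at 7.32, 7.22 and 7.15 in PWD and 7.84, 7.87 and 7.94 in B6. The groups did not overlap, and the difference was -0.65 (SE 0.139, adjusted p = 0.002), or 1.57-fold. Both hybrids lay near PWD, at 7.23, 7.36 and 7.41 in PWDxB6 and 7.25, 7.41 and 7.30 in B6xPWD. The next largest differences, Dhh (-0.45, adjusted p = 0.0689), Tsx and Krt18 (0.39, adjusted p = 0.0756), did not pass. Members with arrays that did not overlap numbered 4 with PWD higher and 10 with PWD lower, beside 21.5% and 16.5% of all genes.

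The F1 animals of B6 and BALB/C were also compared with inbred B6. The mean of both control crosses lay below B6 for 29 of the 33 genes, with a median of -0.17 against 0.01 over all genes. Over all 14745 genes it lay above B6 for 7554. By the test 2 members were lower, where 4.51% of all genes were called and 2.05% were lower. Cst9 was lower by -0.74 (SE 0.17, adjusted p = 0.0176) and Gja1, the gap junction protein connexin 43, by -0.46 (SE 0.127, adjusted p = 0.0376). Cst9 ran from 10.26 to 11.07 in B6xBALB/C with a median of 10.66, stood at 11.24, 10.82 and 11.80 in BALB/CxB6 and at 11.44, 11.87 and 11.86 in B6. Gja1 ran from 10.39 to 10.90 in B6xBALB/C with a median of 10.55, and stood at 11.08, 10.51 and 10.98 in BALB/CxB6 and at 11.17, 11.18 and 11.22 in B6. All control F1 arrays lay below all B6 arrays for 2 members, Gja1 and Trf (2.96% of all genes), whereas 1 BALB/CxB6 array of Cst9 lay within B6. The number of members called was 5 without B6xBALB/C replicate 6 and 0 without B6 replicate 2 or 3. The shares of all genes are not given for these settings. Gja1 lost its call in 10 of 22 other settings and Cst9 in 3 of 22.

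B6xBALB/C against BALB/CxB6 called 0 members in limma, while 0.441% of all genes were called. At an unadjusted p under 0.05 there were 8 of the 33 members, beside 2095 of all 14745 genes. The median of the 33 differences was -0.22, against -0.03 over all genes. Positive differences numbered 4, beside 6241 of all 14745 genes. Cst9 was nearest to a call at -0.60 (SE 0.178, adjusted p = 0.0908). Without B6xBALB/C replicate 6 the test called 4 members, all lower in B6xBALB/C, with the share of all genes not given for that setting. Fshr, Gata1 and Mro, a transcript of the male gonad, were called by the F test but in none of the comparisons described here, which do not cover all pairs of genotypes, and each had its lowest mean in B6xBALB/C (8.06 ± 0.12, 8.90 ± 0.17 and 9.62 ± 0.27, SD, n = 6). Fshr ran from 7.93 to 8.26 there, Gata1 from 8.71 to 9.11 and Mro from 9.33 to 10.08.

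Within B6xBALB/C the mean of the 33 relative to all arrays was -0.25, -0.30, -0.08, 0.01, -0.28 and 0.13 in replicates 1 to 6, and that of the meiotic markers was 0.76, 0.82, 0.58, 0.19, 0.73 and -0.69. Replicate 6, the highest for the Sertoli genes, was the lowest for the meiotic markers. From replicate 2 to replicate 6, chosen as the extremes of the Sertoli mean, the genes differed by 0.02 (Tsx) to 0.93 (Kitl), which the choice of the pair favours. The part of germ cell content in this spread was not tested.

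Within BALB/CxB6, 26 of the 33 genes were higher in replicate 3 than in replicate 2, a pair also chosen by its values. The count is of differences rounded to 2 decimals, where Cdh2, higher by less than that, stands at 0.00. All 7 secreted and lysosomal genes were higher with a median of 0.73, including Cst12 (1.13), Cst9 (0.99), Defb36 (0.84) and Defb19 (0.73). So were Inha (0.91), Dhh (0.84), Cldn11 (0.72) and Fshr (0.63), and 4 of the 6 transcription factors, Gata1 (0.38), Sox9 (0.26), Nr0b1 (0.26) and Sox8 (0.20). The values were -0.06 for Wt1, -0.11 for Gata4, 0.00 for Cdh2, -0.30 for Kitl and -0.38 for Espn. The meiotic markers stood at -0.21 ± 0.02 (SD, n = 3) in this cross.

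**Figure D4:**
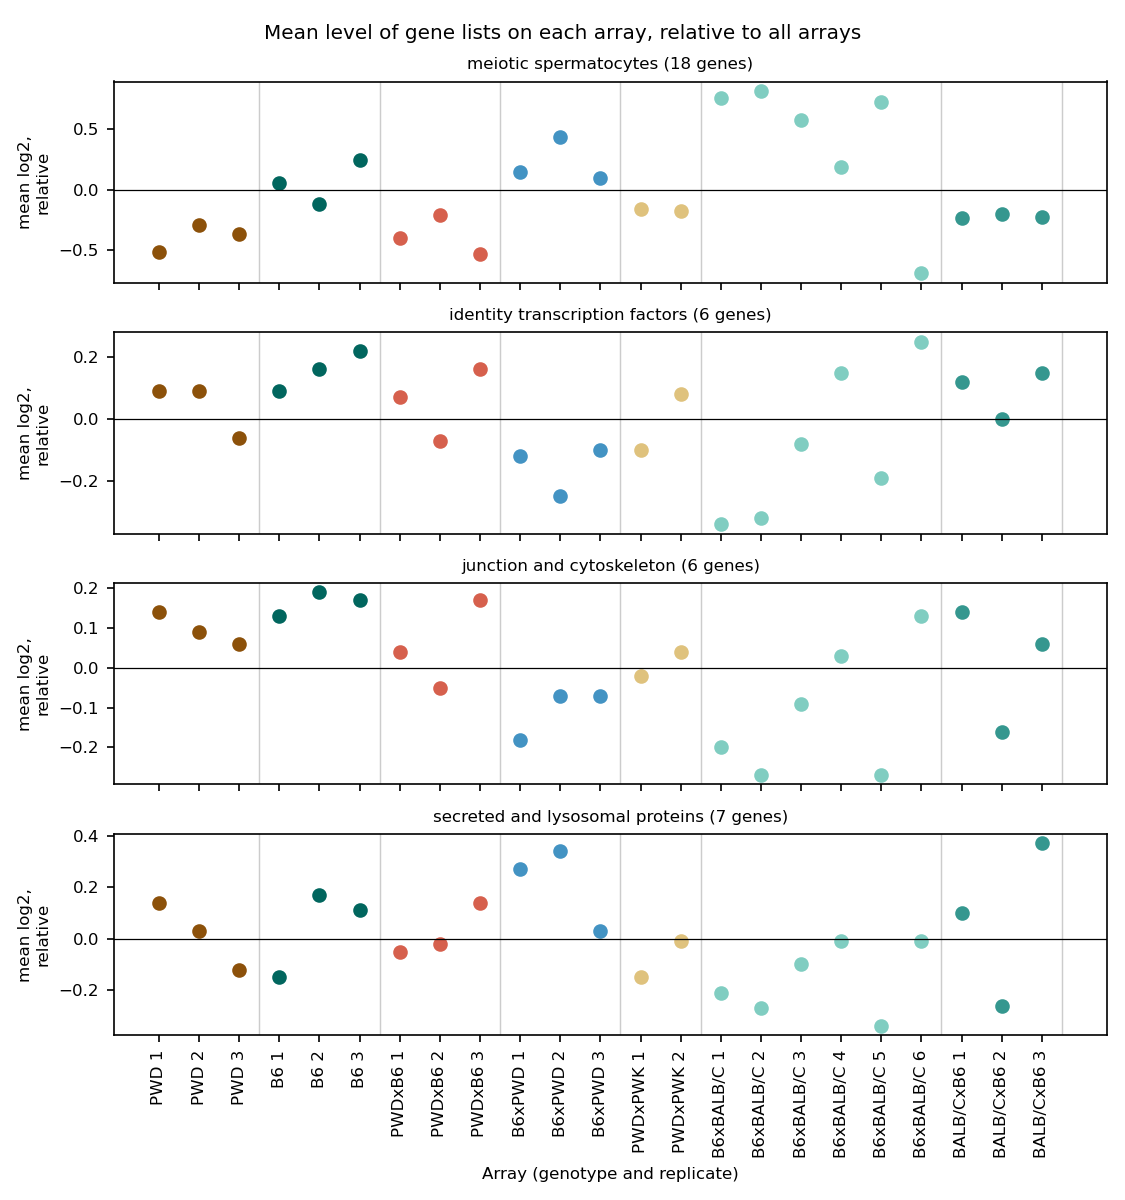
Mean of the genes of a list relative to all arrays (log2, vertical axis, a scale of its own in each panel) on each of the 23 arrays (points, horizontal axis by genotype and replicate), for 18 meiotic spermatocyte markers and for 3 roles of the Sertoli genes. Within B6xBALB/C the meiotic mean runs from -0.69 to 0.82 and the mean of the identity transcription factors from -0.34 to 0.25, while the secreted and lysosomal genes lie at 0.37 in BALB/CxB6 replicate 3 and at -0.26 in replicate 2.

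PWDxPWK, the cross within Mus musculus musculus, was compared with PWD over 2 and 3 arrays. Limma called 0 of the 33 members and 0.00678% of all genes. At an unadjusted p under 0.05 there were 0 members, beside 419 of all 14745 genes. The median difference was -0.06, and Defb19 (-0.31), Amh (-0.27) and Kitl (-0.23) differed most. The PWDxPWK arrays of Amh stood far apart, at 7.74 and 8.57.

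Other genes of the same pathways were counted in B6xPWD against the mid-parent level, where 14.5% of all genes were called and 6.69% were lower. Of 19 tested genes of hormone signalling that are not members, 4 were lower and 0 higher: Pde4d (-0.41), a cAMP phosphodiesterase, Esr1 (-0.61), the estrogen receptor alpha, Igf1r (-0.49), the receptor of insulin-like growth factor, and Inhba (-0.33), a subunit of activin A. The F test, which called 33.8% of all genes, called 6 of the 19, led by Smad3 (adjusted p = 2.08e-05), Pde4d (0.000339) and Hsd17b1 (0.000428). Smad3, which carries activin signals to the nucleus, and the steroid dehydrogenase gene Hsd17b1 were higher in PWD than in B6 by 0.74 and 0.75, and differed by 0.01 and -0.04 between B6xPWD and the mid-parent level.

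Of 18 further junction genes 3 were lower in B6xPWD and 0 higher: Cgn (-0.47), the tight junction protein cingulin, Itga6 (-0.47), an integrin subunit, and Vcl (-0.45), vinculin. The F test called 4 of the 18, with Cgn (adjusted p = 0.0209), Cldn5 (0.0373) and Marveld2 (0.0386) at the top. The claudin gene Cldn5 differed by -0.34 in B6xPWD against mid-parent, and Marveld2, a protein of junctions where cells meet at corners, by -0.03.

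Of 19 other tested Sertoli genes, 5 were lower and 1 was higher in B6xPWD. The receptor genes Mertk (-0.54), Axl (-0.54) and Tyro3 (-0.49), their ligand Gas6 (-0.32) and the engulfment gene Elmo1 (-0.40) were lower. These genes serve the uptake of dying germ cells by Sertoli cells. Tsc22d3, a glucocorticoid response gene, was higher (0.43). The F test called 10 of the 19, led by Aldh1a1 (adjusted p = 0.000185), Gas6 (0.00055) and Tyro3 (0.00448). Aldh1a1, an enzyme of retinoic acid synthesis, was lower in PWD than in B6 by -0.60 and differed by 0.05 between B6xPWD and mid-parent. None of the 3 lists had a gene called between PWDxB6 and B6xPWD. Without 1 of the B6xPWD or parental arrays, the counts called in B6xPWD fell to as few as 1 for hormone signalling, 1 for junctions and 0 for other Sertoli genes. The shares of all genes are not given for these settings.

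The genes of other cells that stood at the top of the F test differed between the parents to various degrees. Clgn and Adam2, expressed in meiotic cells, were lower in PWD than in B6 by -2.14 and -2.52, while Mei1, a meiotic recombination gene, was higher by 0.92. Mrc1 and C1qb of macrophages were lower by -1.15 and -0.85, and Cyp11a1 and Hsd3b6 of Leydig cells by -0.94 and -0.85. The PWD minus B6 difference was -0.58 for both Nr2f2 and Csf1r, of Leydig cells and macrophages. It was 0.82 for Ret, 0.86 for Stra8 and -0.60 for Ddx4 among spermatogonial markers. It was 0.01 for Cnn1, -0.34 for Myh11 and 0.44 for Tagln of peritubular cells. It was -0.74 for Eng, -0.67 for Kdr and 0.11 for Tie1 of endothelial cells. For the members, all of which are counted here, the differences between PWD and B6 ran from -0.65 (Trf) to 0.40 (Tsx). The genes of other cells were picked by their F test p in these same data, which favours large differences. Their sizes therefore cannot be compared with those of the members.

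The calls in B6xPWD against the mid-parent level depended on which arrays were included. The number of members called was 2 without B6xPWD replicate 2, 4 without B6xPWD replicate 1, PWD replicate 1 or PWD replicate 2, and 5 without B6 replicate 1 or B6xPWD replicate 3. Shares of all genes called are not given for these settings. A general loss of calls with fewer arrays therefore cannot be told from a loss in the members. Wt1 and Cdh2 lost the call only without B6xPWD replicate 2 (adjusted p = 0.0501 and 0.0619), Kitl in 3 of 19 other settings (up to 0.161), and Amh and Vim in 5 of 19 each (up to 0.124 and 0.143). No called difference changed sign in any setting tried.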

How the data were processed

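RNA from pools of 4 testes was hybridized to 23 arrays, per the labels. The authors deposited log2 values for 25690 probe sets. The base was inferred from the range, 1.17 to 13.96. Software, normalization and background correction were not given in the sources used here. Array medians lay between 6.13 and 6.28. Per the series design text, the authors had excluded an outlying PWDxPWK array. The number of arrays limits the precision.

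Names came from the platform annotation (20777 with 1 symbol, 232 with several, 4681 with none listed). For 564 of 19661 genes the probe set with the highest mean was taken. The dimmest 25% of genes by mean were not tested.

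Genotype means over all 23 arrays (16 residual degrees of freedom) were fitted with limma 3.58.1 in R 4.3.3, with moderated variances. The threshold for a call was an adjusted p of 0.05 (Benjamini-Hochberg over 14745 genes). All members were described, with every array where called, and the 3 genes with the smallest F test p of each other list were named. Further genes called in B6xPWD were named after their values were seen. Members and lists were chosen with earlier results of these data known. List members unmatched by symbol (8) were not analysed here, and 8 were dim.

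Alternatives were the dim filter, quantile normalization, autosomal centring, mean of probe sets, trended robust variances, array weights, a replicate block, only the groups compared, a linear mid-parent, B6xBALB/C without replicates 4 to 6, each array left out, and, added after seeing the data, the parent with the same X. The linear mid-parent was judged by direction alone. Tested on simulated data for B6xPWD against mid-parent over 14745 genes, the fit recovered 68% of 100 genes shifted by 0.5 and 100% of 100 shifted by 1, and 3.45% of its calls were false. The simulated noise was independent between genes, with no shift shared by the genes of an array. These rates therefore need not hold for the deposited data. Figures used Python 3.11.15 and matplotlib 3.10.9.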

Additional observations from a re-analysis of the deposited data

Results flagged for a closer look

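In B6xBALB/C, replicate 5 stood apart from the other 5 arrays in Vim (11.20, gap over range 0.729) and in Clu (12.58, gap over range 0.693), above the critical value of 0.625. These were 2 of 33 members tested in this cross, and chance alone gives about 1 group in 20. The interaction term of Tsx was 1.37 on the log2 scale, from 1.19 for PWDxB6 minus B6xPWD and -0.18 for B6xBALB/C minus BALB/CxB6. The B6 mother is on opposite sides of these differences, so 1.37 is not the excess of the hybrid difference in size. The cause of the interaction was not tested.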

How the results depend on the processing

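Over 15 called differences of members and 287 combinations of difference and setting, 231 kept direction and call, 56 kept direction and lost the call, and 0 reversed. The linear mid-parent has no p-value and counts among the 231 by its direction alone. The differences of Espn in B6xPWD, Trf between the parents, and Tsx between the reciprocal hybrids and in the interaction passed in all settings with a test. Array weights, which gave B6xPWD replicate 2 a weight of 4.64, raised the members called in the F test from 9 to 25, in PWDxB6 against B6xPWD from 2 to 15, in PWD against B6 from 1 to 4, in B6xPWD against mid-parent from 8 to 17, in B6xBALB/C against BALB/CxB6 from 0 to 8 and in the interaction from 1 to 18. The replicate block, for numbers that do not pair the arrays (correlations of same-numbered deviations from -0.32 to 0.44, 7 of 18 arrays best with their own number), gave 15 in the F test, 2 in PWD against B6, 6 in B6xBALB/C against BALB/CxB6, 7 in the control F1s against B6 and 10 in the interaction. Without B6xBALB/C replicates 4 to 6 these last 3 were 5, 7 and 9. With no dim filter 1 was called in PWDxB6 against B6xPWD and 1 in the control F1s, with autosomal centring 1 in PWDxB6 against B6xPWD, and with only the groups compared 1, 3 and 0 in PWDxB6 against B6xPWD, PWD against B6 and the control F1s. Leaving out 1 array gave 5 to 15 in the F test (5 without PWD replicates 1 or 2, B6 replicates 1 or 2, B6xPWD replicate 2, or B6xBALB/C replicates 1, 2, 3 or 5, and 15 without B6xBALB/C replicate 6), 1 to 3 in PWDxB6 against B6xPWD, 1 to 2 in PWD against B6, 0 to 1 in PWDxB6 against mid-parent (0 without any 1 of its arrays or B6 replicate 2), 2 to 8 in B6xPWD against mid-parent, 0 to 4 in B6xBALB/C against BALB/CxB6, 0 to 5 in the control F1s and 1 to 3 in the interaction. The cause of these changes was not tested. The shares of all genes called under these settings are not given here, so the counts are not set against all genes.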
